A study of Homo sapiens with 8 samples.

Results

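The adhesion molecules *CADM1*, *CNTN1* and *TENM3* were measured in prostate epithelial cells with loss of the transcriptional repressors *ERF* and *CIC*, beside 7 adhesion genes of related families (*TENM2*, *L1CAM*, *ALCAM*, *MCAM*, *NECTIN1*, *NECTIN3* and *NCAM1*). *CADM1*, *CNTN1* and *TENM3* were picked because their estimated counts were strongly lower in the cells with *ERF* KD + *CIC* KO than in WT cells, so their levels in comparisons with these cells are a description and carry no p-value. The other 7 genes were taken by family, as immunoglobulin-type or teneurin adhesion genes. These 10 genes were among 33791 genes with values, and 8 of the 10 passed the filter on low counts that left 14653 genes for testing. *TENM2* and *NCAM1* did not pass it. *CNTN1* passed through its WT libraries alone, and *NECTIN3* through both WT libraries and 1 labelled *ERF* KD. *TENM3* passed through both WT libraries, both labelled *CIC* KO and 1 of *ERF* KD + *CIC* KO, and through none labelled *ERF* KD.

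The cells were PNT2, a line of human prostate epithelium made immortal in culture, and mRNA was sequenced from 2 libraries (replicates A and B) for each of 4 groups. Parental cells are the WT group. A line labelled *ERF* KD and one labelled *CIC* KO stand for loss of 1 repressor, and the fourth group, *ERF* KD + *CIC* KO, for loss of both, which the labels call a CIC-ERF codeletion. In the study a short hairpin RNA, selected with puromycin, silenced *ERF*, and Cas9 with a guide RNA, selected with blasticidin, disrupted *CIC*. These are stable derived lines compared with the parental line. It is not stated which hairpin or guide a replicate letter stands for, nor whether replicates A and B were separate cultures, so p-values measure only the spread between these libraries. Library totals ran from 19477473 to 25813157 estimated counts, and 3 counts, taken as the floor of detection, equal 0.125 to 0.165 counts-per-million (CPM) over the libraries.

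*ERF* mRNA did not follow the labels of the single-loss libraries. It was at 55.8 and 55.9 CPM in WT replicates A and B, at 81.2 and 77.8 CPM in the libraries labelled *ERF* KD, at 18.8 and 11.7 CPM in those labelled *CIC* KO, and at 11.6 and 10.4 CPM in *ERF* KD + *CIC* KO. *CIC* mRNA, which a Cas9 cut need not lower, was between 109 and 132 CPM in WT and in both single-loss groups, and at 90.9 and 66.4 CPM in *ERF* KD + *CIC* KO. In addition, the names of the files for these 4 libraries have the single-loss letters the other way round from the labels. Both single-loss groups are therefore named as labelled, and every direction given for them rests on labels that *ERF* mRNA goes against.

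Cell adhesion molecules of the immunoglobulin superfamily hold cells together by binding the same or a related molecule on the neighbouring cell. *CADM1* and the nectins sit at cell-cell contacts of epithelia and bind scaffold proteins inside the cell, whereas contactins and L1-family proteins are best known from axons and glia. Teneurins are very large transmembrane proteins that bind latrophilin receptors, which in turn bind FLRT proteins, across the gap between cells. *ALCAM*, *MCAM* and *L1CAM* are widely used as surface markers of epithelial, endothelial and tumor cells.

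The libraries carried markers of epithelial cells. Of 6 prostate epithelial markers (*EPCAM*, *CDH1*, *KRT5*, *KRT8*, *KRT18* and *TP63*), 5 were above the floor in every library, while *TP63* was at 12 counts in labelled *CIC* KO replicate B and at 3 counts or fewer elsewhere. Their summed level was 3076 and 3691 CPM in WT, 3240 and 4117 CPM in *ERF* KD + *CIC* KO and 3211 and 4272 CPM in labelled *CIC* KO, against 1301 and 1586 CPM in labelled *ERF* KD. *KRT8* and *KRT18* weighed most in these sums, with means from WT to labelled *ERF* KD of 1483 to 803 and 1044 to 570 CPM. The fall was steeper for *CDH1* (373 to 17.6 CPM), *KRT5* (186 to 17.1 CPM) and *EPCAM* (296 to 35.2 CPM). Of 7 neural and glial markers with values, between 2 and 5 were above the floor in a library, *SOX10* was at 0 throughout, and the sum was 4.13 to 4.65 CPM in WT, 5.61 to 9.94 CPM in labelled *ERF* KD, 4.09 to 4.81 CPM in labelled *CIC* KO and 2.54 to 2.71 CPM in *ERF* KD + *CIC* KO. Of 5 fibroblast markers, 2 to 4 were above the floor, *LUM* was at 0 throughout, and the sum lay between 20.9 and 68.3 CPM, with its highest value in labelled *ERF* KD replicate A. The 4 endothelial markers summed to 4.27 to 36.9 CPM in WT and the single-loss groups and to 67.8 and 16.7 CPM in *ERF* KD + *CIC* KO replicates A and B, and the 3 lymphoid markers to at most 1.14 CPM. Of the endothelial markers, *CDH5* averaged 40.2 CPM in *ERF* KD + *CIC* KO and 7.70 CPM in WT. *PECAM1*, *KDR* and *TEK* had lower means in *ERF* KD + *CIC* KO than in WT. The part of these markers in the results below was not tested, and in bulk RNA fewer cells of a type and less RNA per cell cannot be told apart.

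Levels of different genes can be compared per length, in transcripts-per-million (TPM). On this scale *ALCAM*, at 240 to 311 TPM over the 8 libraries, was the most abundant of the 10 genes, followed by *L1CAM* (94.3 to 228 TPM), *MCAM* (18.8 to 33.6 TPM) and *NECTIN1* (2.90 to 9.84 TPM). *CADM1* ranged from 0.422 to 6.30 TPM, *TENM3* from 0.0197 to 11.3 TPM and *CNTN1* from 0 to 4.45 TPM. *NECTIN3* did not exceed 0.795 TPM in any library, *TENM2* 0.435 TPM and *NCAM1* 0.391 TPM. The spread in CPM between the lowest and the highest library was 1.37-fold for *ALCAM* and 29.7-fold for *CADM1*.

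**Figure D1:**
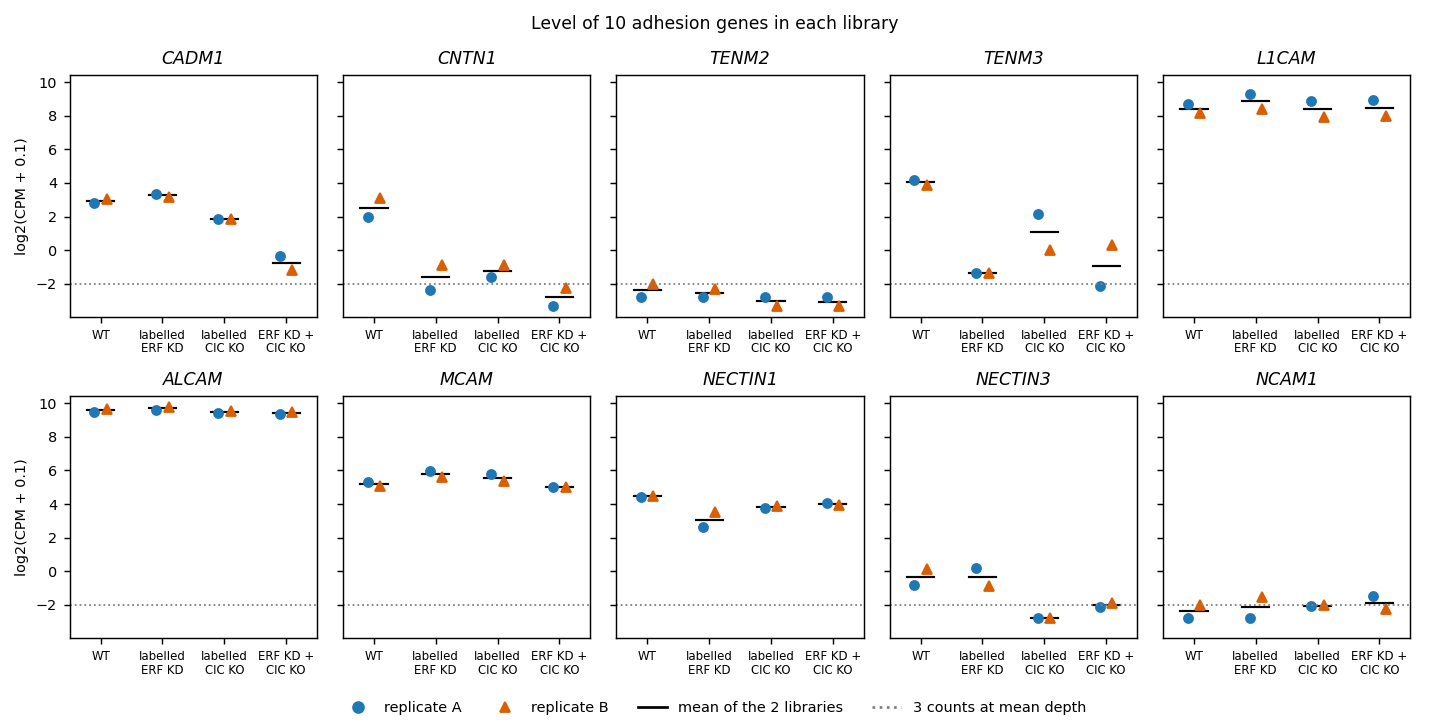
Each panel plots log2(CPM + 0.1) of 1 of the 10 adhesion genes in the 8 libraries, by group, with circles for replicate A, triangles for replicate B, a bar for the mean of the 2 libraries and a dotted line at 3 counts. *CADM1*, *CNTN1* and *TENM3* are lower in *ERF* KD + *CIC* KO than in WT, *ALCAM* is nearly flat across the groups, and *TENM2* lies close to or under the dotted line throughout.

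*CADM1* is an adhesion molecule of epithelial cell borders that binds its own kind and its relatives on the next cell (chromosome 11, chr11:115169218-115504957, minus strand, GRCh38, with 22 annotated transcripts). Its counts were 147 and 159 in WT replicates A and B, 209 and 179 in labelled *ERF* KD, 75 and 74 in labelled *CIC* KO, and 16 and 6 in *ERF* KD + *CIC* KO. The groups did not overlap, and *ERF* KD + *CIC* KO lay far below the other 3. In CPM these were 6.98 and 8.11 CPM in WT, 10.04 and 8.89 CPM in labelled *ERF* KD, 3.49 and 3.56 CPM in labelled *CIC* KO and 0.677 and 0.338 CPM in *ERF* KD + *CIC* KO. Taken over both libraries, 22 counts against 306 in WT made *CADM1* 14.1-fold lower in *ERF* KD + *CIC* KO (95% counting interval 9.17 to 22.9, counting error only). *CADM1* was chosen for this decrease, so this interval and the SEs of changes against WT describe these libraries and test nothing. The log2 fold change against WT was -3.84 (SE 0.36) in *ERF* KD + *CIC* KO, -1.10 (SE 0.30) in labelled *CIC* KO and 0.33 (SE 0.29) in labelled *ERF* KD. Without *ERF* KD + *CIC* KO replicate A the first of these was -4.46. The decrease in *ERF* KD + *CIC* KO was thus larger than the sum of the log2 changes of both single-loss groups, by 3.07 on the log2 scale (SE 0.46), given as a description since *CADM1* was chosen for it.

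The comparison of labelled *ERF* KD with labelled *CIC* KO does not contrast the libraries by which *CADM1* was chosen. Those libraries still enter the fit, through the shared spread, the scaling and the filter, so the p is not independent of them. *CADM1* was higher in labelled *ERF* KD by 1.42 on the log2 scale (SE 0.30, adjusted p = 0.0226 by edgeR's quasi-likelihood test), in both libraries. The size of the difference depended on how transcripts were weighted. With counts scaled by transcript length the difference was 0.71 (adjusted p = 0.315), and it was 0.58 on log2(TPM + 1) (limma, adjusted p = 0.249) and 0.70 on log2(TPM + 0.1) (limma, adjusted p = 0.365). Without labelled *ERF* KD replicate A the edgeR adjusted p was 0.0881, without its replicate B 0.0567, without labelled *CIC* KO replicate A 0.105 and without its replicate B 0.0867.

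*CADM1* counts were spread over several transcripts, and the estimates differed between libraries of a group. The coding transcript CADM1-212 (4223 bases) held 71.8 and 30.0 estimated counts in WT replicates A and B and 64.3 and 71.2 in labelled *ERF* KD, but 28.8 and 1.0 in labelled *CIC* KO. CADM1-206 (3550 bases, coding) held 28.6 and 52.6 in WT, 98.0 and 81.8 in labelled *ERF* KD, 0 and 25.3 in labelled *CIC* KO and 8.7 and 0 in *ERF* KD + *CIC* KO. In TPM, *CADM1* was at 6.24 and 6.05 in WT and at 6.30 and 4.72 in labelled *ERF* KD, which overlap, and at 3.79 and 2.90 in labelled *CIC* KO and 0.422 and 0.740 in *ERF* KD + *CIC* KO.

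*NECTIN1* links neighbouring epithelial cells at adherens junctions and binds the scaffold afadin (chr11:119623408-119729084, minus strand). Its counts were 447 and 439 in WT, 128 and 228 in labelled *ERF* KD, 289 and 305 in labelled *CIC* KO, and 396 and 266 in *ERF* KD + *CIC* KO. These were 21.2 and 22.4 CPM in WT, 6.15 and 11.3 CPM in labelled *ERF* KD, 13.4 and 14.7 CPM in labelled *CIC* KO and 16.8 and 15.0 CPM in *ERF* KD + *CIC* KO, so that WT was highest and labelled *ERF* KD lowest, with no overlap between any of the groups. *NECTIN1* fell in labelled *ERF* KD by 1.32 on the log2 scale against WT (SE 0.27, adjusted p = 0.0196). It was the 1 gene called of the 5 tested among the 7 genes not chosen by value, in a comparison in which 10.1% of all genes tested were called. Without WT replicate A the adjusted p was 0.0790 and without WT replicate B 0.0931. It was 0.0502 on log2(TPM + 0.1) (limma) and 0.0512 with the 4 libraries compared alone. The summed epithelial markers were lowest in the same 2 libraries as *NECTIN1*, at 1301 and 1586 CPM, and their part in the result was not tested.

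*NECTIN1* differed less in the other comparisons. Its log2 fold change against WT was -0.63 in labelled *CIC* KO (SE 0.27, unadjusted p = 0.0439, adjusted p = 0.9997) and, with *ERF* KD + *CIC* KO, -0.46 (SE 0.27, adjusted p = 0.493). Against labelled *ERF* KD, *ERF* KD + *CIC* KO was higher by 0.86 (SE 0.27, adjusted p = 0.0794), which passed the threshold with the replicate letter as a block (adjusted p = 0.0339). Likewise the interaction, the departure of *ERF* KD + *CIC* KO from the sum of both single-loss changes, was 1.497 (SE 0.38, adjusted p = 0.0767) without the block and 1.53 (adjusted p = 0.0259) with it.

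*NECTIN3*, a nectin that binds *NECTIN1* on the neighbouring cell (chr3:111070071-111275563, plus strand), was close to the floor. Its counts were 10 and 20 in WT, 22 and 9 in labelled *ERF* KD, 1 and 1 in labelled *CIC* KO, and 3 and 3 in *ERF* KD + *CIC* KO, so both libraries of the last 2 groups were at or under 3 counts. Labelled *CIC* KO held 2 counts against 31 in labelled *ERF* KD, 16.01-fold fewer (95% counting interval 4.07 to 138). *NECTIN3* passed the filter through 3 libraries, both of WT and labelled *ERF* KD replicate A, its 3 highest, so that its tests on filtered genes favour a difference from the low groups. With this limit, the adjusted p of the difference was 0.0347 (edgeR), and it was 0.0600 in DESeq2 and 0.00857 in edgeR without the filter. Leaving out 1 library gave an adjusted p between 0.0442 and 0.170, and above 0.05 without either WT library (0.0527 and 0.0594), labelled *ERF* KD replicate A (0.170), either library labelled *CIC* KO (0.169 and 0.143) or either *ERF* KD + *CIC* KO library (0.0630 and 0.0632). Against WT, labelled *CIC* KO held 15.6-fold fewer counts (3.96 to 135, unadjusted p = 0.0028, adjusted p = 0.982) and *ERF* KD + *CIC* KO 5.08-fold fewer (2.08 to 14.9, unadjusted p = 0.0175, adjusted p = 0.274).

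*CNTN1* (contactin 1) is a cell-surface protein held by a lipid anchor, best known from axons (chr12:40692442-41072418, plus strand). Its counts were 79 and 165 in WT, 2 and 9 in labelled *ERF* KD, 5 and 9 in labelled *CIC* KO, and 0 and 2 in *ERF* KD + *CIC* KO. WT stood apart from all other groups, and labelled *ERF* KD and labelled *CIC* KO overlapped. WT held 3.75 and 8.41 CPM, against 0.0961 to 0.447 CPM in the single-loss libraries and 0 and 0.113 CPM in *ERF* KD + *CIC* KO. Over both libraries *CNTN1* was 22.3-fold lower than in WT in labelled *ERF* KD (95% counting interval 12.3 to 45.3), 18.1-fold lower in labelled *CIC* KO (10.6 to 33.6) and 124-fold lower in *ERF* KD + *CIC* KO (34.0 to 1030). *CNTN1* was chosen for the last of these decreases, and all of them use the same WT libraries, so the intervals are a description and test nothing. *ERF* KD + *CIC* KO was at or under 3 counts in both libraries, and its 2 counts stood against 11 in labelled *ERF* KD (5.55-fold, 1.21 to 51.6) and 14 in labelled *CIC* KO (6.85-fold, 1.57 to 62.1). Single libraries moved the fitted log2 fold changes of *CNTN1* against WT, which were -4.46 in labelled *ERF* KD, -4.17 in labelled *CIC* KO and, with *ERF* KD + *CIC* KO, -6.77. Without WT replicate B they were -3.76, -3.47 and -6.07. In labelled *ERF* KD the value was -3.74 without replicate A and -5.89 without replicate B, and in *ERF* KD + *CIC* KO -5.68 without replicate A. Without replicate B the latter group was at 0 counts, so that its fitted value depends on the prior count. With 1 library left out the lowest fitted value of *ERF* KD + *CIC* KO against WT was -10.0. Between labelled *ERF* KD and labelled *CIC* KO, the comparison not used to choose it, *CNTN1* differed by -0.29 on the log2 scale (SE 0.94, adjusted p = 0.897), an error too wide to show whether they are alike.

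In WT, most *CNTN1* counts were on 2 coding transcripts that start at different places. CNTN1-208 (5557 bases) held 52.1 and 71.0 estimated counts in WT and CNTN1-201 (3393 bases) 24.9 and 75.2. CNTN1-201 held 2.0 counts in labelled *ERF* KD replicate A and 0 in the other 5 libraries, and CNTN1-208 at most 7.1 counts outside WT. In *ERF* KD + *CIC* KO replicate B, 1.5 of the 2 counts were on CNTN1-209, a transcript of 555 bases, which gave 0.377 TPM beside 1.39 and 4.45 TPM in WT. Scales that correct for length therefore put *CNTN1* in *ERF* KD + *CIC* KO no lower than in labelled *ERF* KD (log2 difference 0.74 with length-scaled counts and 0.07 on log2(TPM + 1)).

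*TENM3* (teneurin 3) is a very large transmembrane protein of the teneurin family (chr4:182143987-182803024, plus strand). Its counts were 385 and 285 in WT, 6 and 6 in labelled *ERF* KD, 95 and 19 in labelled *CIC* KO, and 3 and 20 in *ERF* KD + *CIC* KO. Both WT libraries were above all others, and the libraries of *ERF* KD + *CIC* KO overlapped with those labelled *CIC* KO. WT stood at 18.3 and 14.5 CPM, labelled *ERF* KD at 0.288 and 0.298 CPM, labelled *CIC* KO at 4.42 and 0.914 CPM and *ERF* KD + *CIC* KO at 0.127 and 1.13 CPM. Over both libraries *TENM3* was 56.2-fold lower than WT in labelled *ERF* KD (95% counting interval 32.0 to 109), 6.11-fold lower in labelled *CIC* KO (5.004 to 7.52) and 29.6-fold lower in *ERF* KD + *CIC* KO (19.6 to 47.1). *TENM3* was chosen for the last of these decreases, and all of them use the same WT libraries, so the intervals are a description and test nothing. The spread between replicates was much wider than counting error. The log2 fold change against WT in labelled *CIC* KO was -2.62, but -4.16 without its replicate A and -1.89 without its replicate B. In the same way it was -4.78 in *ERF* KD + *CIC* KO, but -3.86 without its replicate A and -6.95 without its replicate B.

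The 6 *TENM3* counts of each library labelled *ERF* KD lay between those of both *ERF* KD + *CIC* KO libraries. *ERF* KD + *CIC* KO minus labelled *ERF* KD was 0.9997 on the log2 scale (SE 1.10), and -1.17 without *ERF* KD + *CIC* KO replicate B. Between the single-loss groups, which did not serve to choose it, the log2 fold change of *TENM3* in labelled *ERF* KD over labelled *CIC* KO was -3.16 (SE 0.97, adjusted p = 0.0880). This comparison passed the threshold in DESeq2 (adjusted p = 0.0015). With 1 library left out the edgeR log2 fold change ranged from -3.88 to -1.63. *TENM3* passed the filter with both libraries labelled *CIC* KO over its cutoff and none labelled *ERF* KD, so its edgeR test favours a difference between these groups. The longest coding transcript, TENM3-204 (10896 bases), held 273 and 217 estimated counts in WT, 0 and 4.5 in labelled *ERF* KD, 55.5 and 5.0 in labelled *CIC* KO and 2.8 and 9.4 in *ERF* KD + *CIC* KO. TENM3-206, a transcript of 1237 bases with no annotated coding sequence, held 50.7 and 43.3 in WT and at most 14.9 in any other library. *TENM2*, its relative (chr5:167284799-168264157, plus strand), was at 3 counts or fewer in all 8 libraries, so no comparison can be made.

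The promoters of *CNTN1* and *TENM3* are shown because both genes were low in all 3 groups derived from WT, and that of *MCAM* because its change is tested below. Each sequence runs from 250 bases before to 50 bases after an annotated start (RefSeq, GRCh38.p14), 5′ to 3′ on the strand of the gene, with the 50 bases from the start onward in capitals. GENCODE places the start of CNTN1-201 3 bases before the first capital of the *CNTN1* stretch, that of TENM3-206 24 bases after it in the *TENM3* stretch, and that of MCAM-201 14 bases inside the transcribed part of the *MCAM* stretch. The *CNTN1* stretch lies inside the gene, whose first annotated base is 40692442, and whether it acts as a promoter was not tested.
CNTN1, chr12:40908107-40908406, plus strand: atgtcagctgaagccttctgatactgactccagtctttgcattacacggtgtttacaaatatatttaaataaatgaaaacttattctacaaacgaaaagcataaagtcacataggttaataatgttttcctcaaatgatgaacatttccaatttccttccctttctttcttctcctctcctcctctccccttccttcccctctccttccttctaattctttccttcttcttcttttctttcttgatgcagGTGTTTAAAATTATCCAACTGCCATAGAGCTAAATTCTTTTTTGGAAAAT
TENM3, chr4:182143713-182144012, plus strand: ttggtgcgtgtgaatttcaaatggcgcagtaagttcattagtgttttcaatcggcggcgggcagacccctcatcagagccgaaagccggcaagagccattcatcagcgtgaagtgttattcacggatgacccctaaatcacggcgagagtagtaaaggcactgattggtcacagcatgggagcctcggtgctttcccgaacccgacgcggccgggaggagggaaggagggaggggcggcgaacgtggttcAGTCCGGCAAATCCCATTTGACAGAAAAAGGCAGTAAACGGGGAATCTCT
MCAM, chr11:119317081-119317380, minus strand: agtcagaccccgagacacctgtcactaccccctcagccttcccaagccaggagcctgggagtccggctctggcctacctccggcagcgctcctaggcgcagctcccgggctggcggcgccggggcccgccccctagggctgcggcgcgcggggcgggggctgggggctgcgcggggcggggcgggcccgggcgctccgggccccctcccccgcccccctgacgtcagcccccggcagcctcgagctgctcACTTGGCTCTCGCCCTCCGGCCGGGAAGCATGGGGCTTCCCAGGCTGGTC
GC content was 35.0% in the *CNTN1* stretch, 55.0% in the *TENM3* stretch and 78.0% in the *MCAM* stretch. The table held 11 promoters of 7 of the 10 genes. The *CIC* octamers TGAATGAA, TGAATAAA, TCAATGAA and TCAATAAA and the ETS site CCGGAAGT, which *ERF* as an ETS-domain protein can bind, were searched on both strands. None of the 11 held any of them, whereas 4.52% of all 35116 promoters held at least 1 of the octamers and 4.14% held the ETS site. No match says only that these letters are not in these windows. It does not show that sites for either repressor are absent. The study gives the shorter motif GGAA for *ERF*. This motif was not searched for, and each stretch printed above holds it. The *CIC* site that the study places at *ETV1* differs from these octamers and was not searched for. The starts of CNTN1-208 and TENM3-204, the transcripts with the most counts of their genes, lie 135632 and 99466 bases from the nearest start in the table and were not searched, and *CADM1* had no promoter in the table.

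*L1CAM*, the founding member of the L1 family (chrX:153861514-153886174, minus strand), was abundant in every library, with a difference between replicate letters as large as any between groups. Its counts were 8676 and 5553 in WT replicates A and B, 13071 and 6871 in labelled *ERF* KD, 9985 and 4978 in labelled *CIC* KO, and 11472 and 4550 in *ERF* KD + *CIC* KO. Replicate A was the higher in all 4 groups and the groups overlapped. In CPM, labelled *ERF* KD was higher than WT by 0.61 on the log2 scale within replicate A and by 0.27 within replicate B. The fitted difference was 0.48 (SE 0.43, adjusted p = 0.544), and 0.43 with the replicate letter as a block (adjusted p = 0.0479). Against labelled *CIC* KO, labelled *ERF* KD was higher by 0.44 within replicate A and by 0.51 within replicate B, with an adjusted p of 0.591 without the block and 0.0373 with it. *ERF* KD + *CIC* KO differed from WT by 0.09 (SE 0.43, adjusted p = 0.944). *NCAM1*, the neural cell adhesion molecule (chr11:112961247-113278436, plus strand), had between 1 and 6 counts in every library and exceeded 3 counts in labelled *ERF* KD replicate B, at 5, and *ERF* KD + *CIC* KO replicate A, at 6.

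*ALCAM*, which binds its own kind and the T-cell receptor CD6 (chr3:105366909-105576900, plus strand), varied least. It was at 719 and 803 CPM in WT, 768 and 888 CPM in labelled *ERF* KD, 686 and 757 CPM in labelled *CIC* KO and 650 and 721 CPM in *ERF* KD + *CIC* KO, and the groups overlapped. Its log2 fold change against WT was 0.12 in labelled *ERF* KD, -0.08 in labelled *CIC* KO and, with *ERF* KD + *CIC* KO, -0.15, each with an SE of 0.15 and adjusted p-values of 0.663, 0.9997 and 0.684. The transcript ALCAM-201 (4701 bases) carried between 10204 and 14512 estimated counts and ALCAM-205 (4189 bases) between 2124 and 3104.

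*MCAM*, a surface glycoprotein of endothelium and of several tumors (chr11:119308529-119321521, minus strand), had a higher CPM in both single-loss groups than in WT or *ERF* KD + *CIC* KO. Its counts were 821 and 654 in WT, 1282 and 983 in labelled *ERF* KD, 1170 and 856 in labelled *CIC* KO, and 771 and 572 in *ERF* KD + *CIC* KO. This was 39.0 and 33.3 CPM in WT, 61.6 and 48.8 CPM in labelled *ERF* KD, 54.4 and 41.2 CPM in labelled *CIC* KO and 32.6 and 32.3 CPM in *ERF* KD + *CIC* KO. Both *ERF* KD + *CIC* KO libraries lay below all others, and both single-loss groups lay above WT. The log2 fold change against WT was 0.61 in labelled *ERF* KD (SE 0.18, adjusted p = 0.0749, and 0.0141 with the replicate block), 0.40 in labelled *CIC* KO (SE 0.18, adjusted p = 0.9997, and -0.015 with length-scaled counts) and, with *ERF* KD + *CIC* KO, -0.16 (SE 0.18, adjusted p = 0.740). *MCAM* fell in *ERF* KD + *CIC* KO against labelled *ERF* KD by 0.77 on the log2 scale (SE 0.18, adjusted p = 0.0320), the 1 gene called of 5 tested where 11.7% of all genes were called. In the interaction it was the 1 gene called of 5 as well, at -1.17 (SE 0.26, adjusted p = 0.0458), where 4.15% of all genes were called.

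Both calls of *MCAM* lay near the threshold. Against labelled *ERF* KD the adjusted p was 0.0529 and 0.0508 without WT replicate A or B, 0.142 without labelled *ERF* KD replicate A, and 0.147 and 0.125 without *ERF* KD + *CIC* KO replicate A or B, and with length-scaled counts the difference was -0.58 (adjusted p = 0.158). For the interaction it was 0.111 and 0.170 without WT replicate A or B, 0.104 without labelled *ERF* KD replicate A, 0.107 without labelled *CIC* KO replicate A, 0.151 and 0.123 without *ERF* KD + *CIC* KO replicate A or B, and with length-scaled counts the interaction was -0.57 (adjusted p = 0.460). In TPM, *MCAM* was at 25.9 and 27.3 in WT and at 18.8 and 23.7 in *ERF* KD + *CIC* KO. The exons of *MCAM* share 509 bases with those of *CBL* on the opposite strand, which held 911 to 1619 estimated counts, and whether the libraries kept strand is not given in the sources used here. Of the endothelial markers, whose sum was highest in *ERF* KD + *CIC* KO replicate A, *CDH5* had 1544 counts there and 54 to 739 counts in the other libraries. The rest of that list did not rise with it. From WT to *ERF* KD + *CIC* KO the mean of *PECAM1* went from 2.05 to 0.839 CPM. That of *KDR* went from 1.24 to 1.07 CPM and that of *TEK* from 0.467 to 0.162 CPM.

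Of the 5 tested genes other than *CADM1*, *CNTN1* and *TENM3*, none was called in 3 further comparisons. For labelled *CIC* KO against WT, edgeR called 0 of 5 and 0% of all genes, with *NECTIN1* and *NECTIN3* at an unadjusted p under 0.05 (2 of 5, beside 4.01% of all genes), and DESeq2 called 0 of 5. For *ERF* KD + *CIC* KO against WT, edgeR called 0 of 5 and 0.0682% of all genes (10 genes), with *NECTIN3* at an unadjusted p under 0.05 (1 of 5, beside 13.3% of all genes), and DESeq2 called 0. In both of these comparisons with WT, *NECTIN3* had passed the filter through libraries in which it is high, WT among them. Its unadjusted p-values there favour a difference and are no support for one. For *ERF* KD + *CIC* KO against labelled *CIC* KO, edgeR called 0 of 5 and 0% of all genes, with *MCAM* at an unadjusted p of 0.0151 (1 of 5, beside 8.3% of all genes), and DESeq2 called 0. For labelled *ERF* KD against labelled *CIC* KO, *CADM1*, *CNTN1* and *TENM3* could be tested too. There 2 of 8 were called (*CADM1* and *NECTIN3*, both higher in labelled *ERF* KD) beside 9.4% of all genes. *NECTIN3* had passed the filter through libraries in which it is high, so its call is no support for a difference. The comparisons with WT share the WT libraries, and those with *ERF* KD + *CIC* KO share its libraries.

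**Figure D2:**
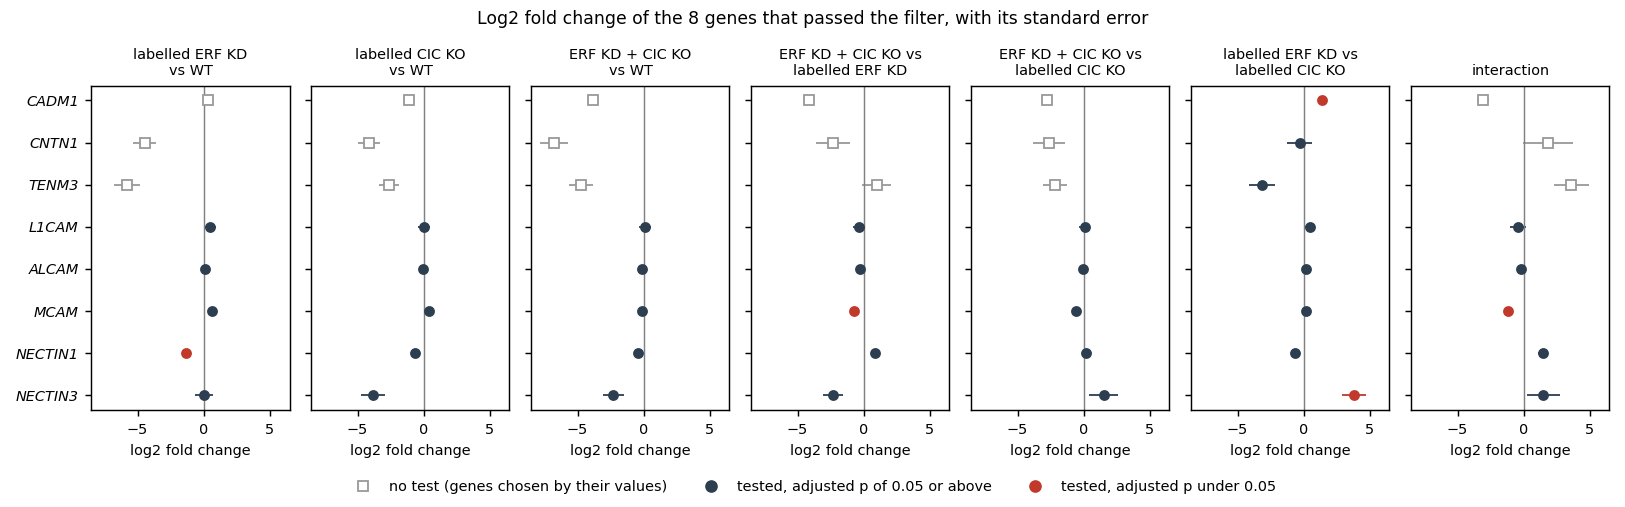
Each panel plots, for 1 comparison, the log2 fold change of the 8 genes that passed the filter, with its standard error as a bar, open squares for genes chosen by their values and not tested, and red circles for an adjusted p under 0.05. The red circles are *NECTIN1* at -1.32 against WT in labelled *ERF* KD, *MCAM* at -0.77 against labelled *ERF* KD in *ERF* KD + *CIC* KO and at -1.17 in the interaction, and *CADM1* at 1.42 and *NECTIN3* at 3.83 between the single-loss groups.

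Partners and relatives of the 10 genes were read from 6 lists drawn up by family, which together held 76 genes. Of these, 49 passed the filter and were tested. In labelled *ERF* KD against WT, 4 were higher and 7 lower, beside 10.1% of all genes called. In *ERF* KD + *CIC* KO against WT edgeR called none, and 8 had an unadjusted p under 0.05, beside 13.3% of all genes. DESeq2 called 2 there, beside 388 of 22194 genes. The median log2 fold change of the 49 was -0.16, beside 0.00 over all genes tested. In labelled *CIC* KO against WT none was called by edgeR or DESeq2, with a median of -0.03. There 3 had an unadjusted p under 0.05, beside 4.01% of all genes. In *ERF* KD + *CIC* KO against labelled *ERF* KD, 6 were higher and 9 lower, beside 11.7% of all genes called. In labelled *ERF* KD against labelled *CIC* KO, 8 were higher and 7 lower, beside 9.4% of all genes. None was called in *ERF* KD + *CIC* KO against labelled *CIC* KO by edgeR (median -0.08). In this comparison 5 had an unadjusted p under 0.05, beside 8.3% of all genes, and DESeq2 called 2, beside 132 of 22194 genes. In the interaction 2 were higher and 4 lower, beside 4.15% of all genes. Blocking on the letter, edgeR called more of the 49 and also more of all 14653 genes. It called 9 higher and 13 lower in labelled *ERF* KD against WT, beside 2671 of all genes. In *ERF* KD + *CIC* KO against WT 3 were lower, beside 365 of all genes. Against labelled *CIC* KO 1 was lower in *ERF* KD + *CIC* KO, beside 49 of all genes. In the interaction 6 were higher and 8 lower, beside 1400 of all genes.

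The scaffold list holds proteins that anchor nectins, *CADM1* and L1-family molecules inside the cell. Of its 9 tested genes, 4 fell and none rose in labelled *ERF* KD against WT, beside 10.1% of all genes called. The median was -0.22, and 1 gene rose with the replicate block, which called 2671 of all 14653 genes. *AFDN*, which encodes the nectin scaffold afadin, was at 256 and 224 CPM in WT, 90.8 and 84.4 CPM in labelled *ERF* KD, 215 and 167 CPM in labelled *CIC* KO and 272 and 213 CPM in *ERF* KD + *CIC* KO, a fall of 1.45 on the log2 scale in labelled *ERF* KD (SE 0.18, adjusted p = 0.0020). *AFDN* was thus lowest in the same 2 libraries as *NECTIN1*. *PICK1*, a PDZ scaffold, fell by 0.79 (adjusted p = 0.0149) and *CASK*, which binds the tail of *CADM1*, by 0.63 (adjusted p = 0.0168). *ANK3*, an ankyrin that binds L1-family proteins, was at 2.40 and 1.84 CPM in labelled *ERF* KD and at 25.9 and 15.2 CPM in *ERF* KD + *CIC* KO, a difference of 3.28 (SE 0.53, adjusted p = 0.0062), with an interaction of 3.49 (adjusted p = 0.0314).

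In the nectin-CADM list, with 6 of 10 genes tested, labelled *ERF* KD had less *NECTIN4* and more *CADM3* than WT. *NECTIN4* was at 7.46 and 15.2 CPM in WT, 0.672 and 1.49 CPM in labelled *ERF* KD, 11.3 and 10.6 CPM in labelled *CIC* KO and 5.38 and 14.4 CPM in *ERF* KD + *CIC* KO (log2 fold change in labelled *ERF* KD -3.38, SE 0.60, adjusted p = 0.0105). *CADM3*, a relative of *CADM1* found mainly in neural tissue, had 65 and 37 counts in labelled *ERF* KD and at most 6 counts in the other 6 libraries. It passed the filter through these 2 libraries alone and so had to differ from the other groups, and its p-values are not given, although it stands in the counts of genes called. In *ERF* KD + *CIC* KO, *NECTIN4* was higher than in labelled *ERF* KD by 3.19 (SE 0.60, adjusted p = 0.0124) and *CADM3* was at 2 and 2 counts. Against WT the median of the list was -0.18 there, with none called.

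The contactin-L1 list, with 6 of 15 genes tested, had a median of 0.97 in labelled *ERF* KD against WT. There 2 were higher and none lower, beside 10.1% of all genes called. With the replicate block 1 was lower, beside 2671 of all 14653 genes called. In *ERF* KD + *CIC* KO against labelled *ERF* KD the median was -1.25 (none higher and 3 lower, beside 11.7% of all genes). *NFASC*, an L1-family protein of axons, was at 1.66 and 1.89 CPM in WT, 11.3 and 11.5 CPM in labelled *ERF* KD, 4.19 and 2.50 CPM in labelled *CIC* KO and 0.593 and 0.846 CPM in *ERF* KD + *CIC* KO. Its groups did not overlap, and its interaction of -4.90 (SE 0.51, adjusted p = 0.0019) passed the threshold. *NRCAM*, of the same family, was at 2.42 and 3.72 CPM in WT and at 0.423 and 0.789 CPM in *ERF* KD + *CIC* KO, with an interaction of -3.79 (SE 0.69, adjusted p = 0.0223). *CNTNAP1*, which pairs with *CNTN1* at the axon, rose in labelled *ERF* KD by 1.55 (SE 0.22, adjusted p = 0.0038), from 16.1 and 11.3 CPM to 39.2 and 41.4 CPM, in libraries in which *CNTN1* was at 2 and 9 counts.

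Of the teneurin partner list, 6 of 8 genes were tested. In labelled *ERF* KD against WT 1 was higher and none lower, beside 10.1% of all genes called. In *ERF* KD + *CIC* KO against labelled *ERF* KD 1 was higher and 3 lower, beside 11.7% of all genes. The higher 1 was *ADGRL1*, also a latrophilin, with means of 16.1 CPM in labelled *ERF* KD and 37.4 CPM in *ERF* KD + *CIC* KO. *ADGRL2*, a latrophilin, rose in labelled *ERF* KD by 1.13 (SE 0.14, adjusted p = 0.0021), from 37.3 and 40.6 CPM to 89.8 and 80.4 CPM, and was at 37.7 and 40.5 CPM in *ERF* KD + *CIC* KO. *TENM4*, a teneurin, was at 1.05 and 2.40 CPM in WT, 7.83 and 12.4 CPM in labelled *ERF* KD, 2.74 and 1.88 CPM in labelled *CIC* KO and 0.466 and 2.26 CPM in *ERF* KD + *CIC* KO, and fell from labelled *ERF* KD to *ERF* KD + *CIC* KO by 2.92 (SE 0.69, adjusted p = 0.0311). *FLRT2* fell between the same groups by 1.73 (SE 0.23, adjusted p = 0.0028), to 16.6 and 23.8 CPM from 58.3 and 75.3 CPM. *TENM3* and *TENM4* therefore stood in opposite order in the libraries labelled *ERF* KD and WT.

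Of the NCAM and IgSF list, 14 of 24 genes were tested. In labelled *ERF* KD against WT 2 fell, beside 10.1% of all genes called. With the replicate block 2 rose and 5 fell, beside 2671 of all 14653 genes called. *CEACAM1*, an epithelial adhesion molecule, fell by 1.68 (SE 0.32, adjusted p = 0.0140), to 2.26 and 2.78 CPM from 6.03 and 10.2 CPM. *ST8SIA4*, which adds polysialic acid to *NCAM1*, fell by 1.56 (SE 0.37, adjusted p = 0.0324), to 2.02 and 2.63 CPM from 5.56 and 8.21 CPM. *KIRREL3* was higher in labelled *ERF* KD than in labelled *CIC* KO by 0.84 (SE 0.18, adjusted p = 0.0207). Of the 8 sheddase genes, which encode proteases that cut adhesion molecules at the cell surface and their cofactors, all were tested. None was called by edgeR in a comparison with WT. An unadjusted p under 0.05 was reached by 3 in labelled *ERF* KD (beside 3634 of all 14653 genes). It was reached by 2 in *ERF* KD + *CIC* KO (beside 13.3% of all genes) and by none in labelled *CIC* KO (beside 4.01%). In labelled *ERF* KD against WT, DESeq2 called 1 of the 8, beside 2000 of 22194 genes. There edgeR with the replicate block called 3, beside 2671 of 14653 genes. *BACE1* fell from labelled *ERF* KD to *ERF* KD + *CIC* KO by 1.14 on the log2 scale (SE 0.17, adjusted p = 0.0044).

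**Figure D3:**
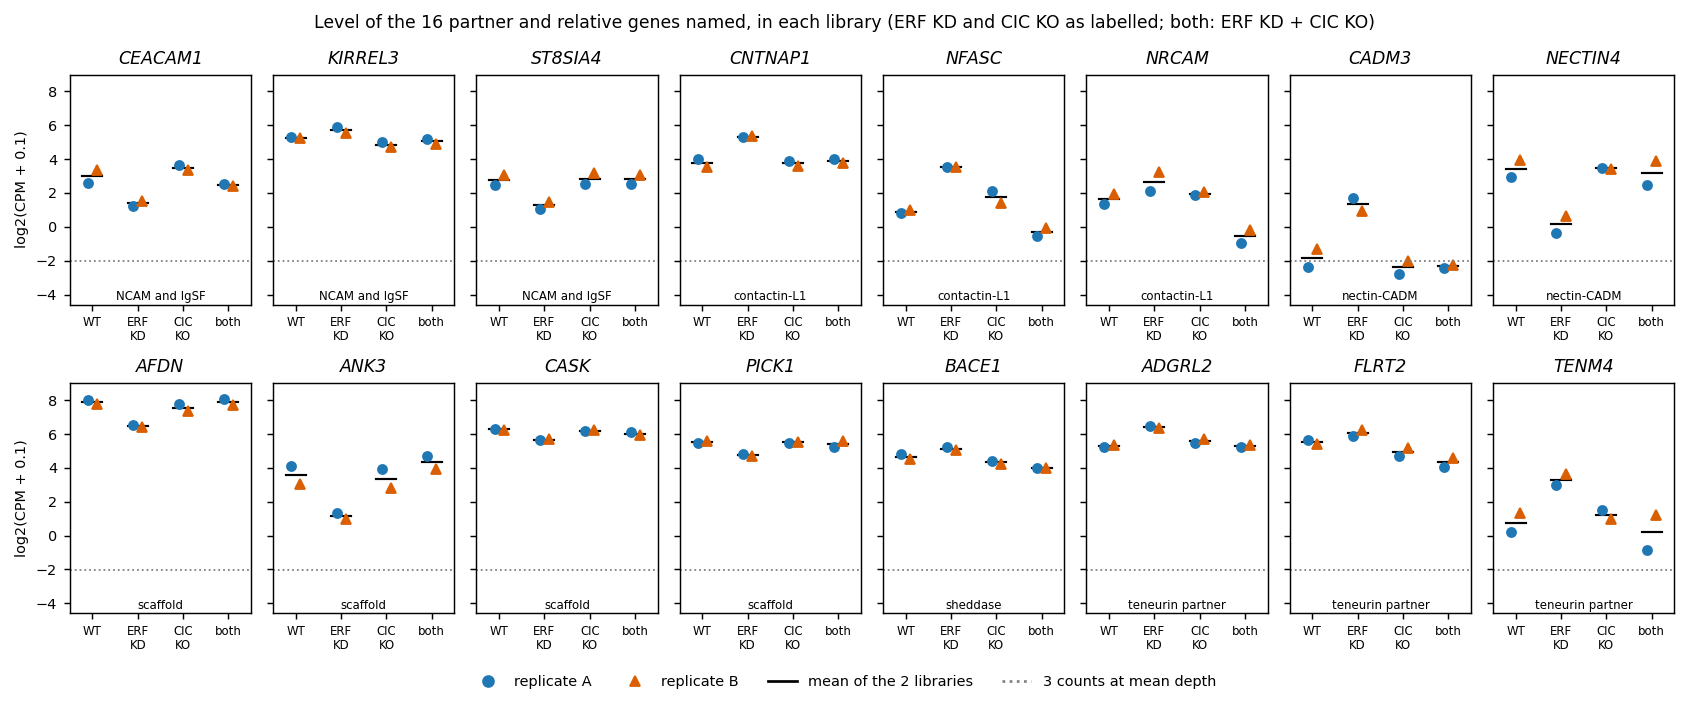
Each panel plots log2(CPM + 0.1) of 1 of 16 partner and relative genes, by group. Circles stand for replicate A, triangles for replicate B, a bar for the mean of the 2 libraries and a dotted line for 3 counts. *AFDN*, *ANK3*, *NECTIN4*, *CEACAM1* and *ST8SIA4* are lowest in labelled *ERF* KD, whereas *NFASC*, *CNTNAP1*, *CADM3*, *ADGRL2* and *TENM4* are highest there.

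The genes whose log2 CPM over the 8 libraries was most like that of *CADM1*, *CNTN1* and *TENM3* were looked up among 12606 protein-coding genes, as a description. For *CADM1* they were *KIAA0232* (r = 0.990), *ZNF614* (r = 0.976) and *UHRF2* (r = 0.962). *KIAA0232* averaged 37.7 CPM in WT, 37.7 CPM in labelled *ERF* KD, 32.8 CPM in labelled *CIC* KO and 24.4 CPM in *ERF* KD + *CIC* KO, a much smaller range than that of *CADM1*. For *CNTN1* they were *MCM5* (r = 0.982), *MCC* (r = 0.964) and *LMF2* (r = 0.957), of which *MCM5* averaged 219 CPM in WT and 170 to 187 CPM in the other groups. For *TENM3* they were *CYP24A1* (r = 0.985), *ENOSF1* (r = 0.972) and *RABL2A* (r = 0.972). *CYP24A1*, the enzyme that breaks down active vitamin D, spanned nearly the range of *TENM3*, with means of 14.9 CPM in WT, 0.342 CPM in labelled *ERF* KD, 4.90 CPM in labelled *CIC* KO and 0.698 CPM in *ERF* KD + *CIC* KO. The points share 8 libraries, 4 groups and their depths.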

How the data were processed

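RNA-seq tables of 8 PNT2 libraries were used. For each transcript the authors deposited estimated counts, which are not normalized, and TPM, computed from them and the effective transcript lengths, in kallisto's output format. Per the labels the genome build was hg19. The kallisto version and annotation are not given in the sources used here. Of 180253 transcripts, 153245 (85.0%) were found by identifier in GENCODE release 29 (GRCh38), and they held 93.2 to 93.3% of each library's counts. Estimated counts were summed per gene, rounded and filtered (filterByExpr). A quasi-likelihood model (edgeR 4.0.16, R 4.3.3, TMM scaling, glmQLFTest) was fitted to all 4 groups at once, with Benjamini-Hochberg adjustment over 14653 genes and a threshold of 0.05. CPM are TMM-normalized. Reads that fit several transcripts were divided by kallisto, so related or overlapping genes carry an error that replicates do not show.

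The genes, lists and comparisons were chosen with earlier results of these data known. *CADM1*, *CNTN1* and *TENM3* were given no p where WT or *ERF* KD + *CIC* KO libraries were among those contrasted. Named beside the 10 genes were *ERF* and *CIC*, in each comparison the 3 genes of each list with the smallest adjusted p under 0.05 and at least 1 CPM in a group, and the 3 protein-coding genes most correlated with each of *CADM1*, *CNTN1* and *TENM3*, at a mean of at least 1 CPM. *ADGRL1* is named outside this rule, as the 1 teneurin partner called higher in *ERF* KD + *CIC* KO than in labelled *ERF* KD.

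Replicates differed by more than sampling noise (chi-square per degree of freedom 21.5 to 43.1). The log2 differences between replicates A and B of 2 groups correlated across genes in all 6 pairs of groups (r = 0.136 to 0.335), and libraries of 1 letter were therefore treated as paired in the block, although no source says what a letter means. The biological coefficient of variation was 0.197, and 0.142 with the block. Alternatives were DESeq2 1.42.0, no filter, the replicate block, length-scaled counts, limma 3.58.1 on log2(TPM + 1) and log2(TPM + 0.1), a fit of only the groups compared, and each library left out. Intervals of count ratios are exact conditional binomial intervals and cover counting error only.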

Additional observations from a re-analysis of the deposited data

Results flagged for a closer look

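The 3 results below passed the threshold in a test between the single-loss groups or of the departure from the sum of both single-loss changes. For *NECTIN3* this test is no support for a difference, because of the filter. *CADM1* was higher in labelled *ERF* KD than in labelled *CIC* KO by 1.42 on the log2 scale (SE 0.30, adjusted p = 0.0226), in both libraries. With length-scaled counts and on both TPM scales the difference was smaller and did not pass the threshold. *NECTIN3* was higher in labelled *ERF* KD than in labelled *CIC* KO by a fitted 3.83 on the log2 scale (SE 0.91, adjusted p = 0.0347), where labelled *CIC* KO had 1 count in each library, the fitted value depends on the prior count, and the gene had passed the filter through libraries in which it is high. *MCAM* had an interaction of -1.17 (SE 0.26, adjusted p = 0.0458), with both single-loss groups above WT in CPM and *ERF* KD + *CIC* KO below it in both libraries. With length-scaled counts and on both TPM scales this interaction did not pass the threshold, and labelled *CIC* KO was not above WT. Groups of 2 libraries were not searched for outlying libraries.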

How the results depend on the processing

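With 2 libraries per group and several members near the floor, calls of single genes moved easily. At the lowest depth 3 counts are 0.165 CPM, and below this floor levels of *CNTN1*, *NECTIN3*, *TENM2* and *NCAM1* have no order. A p that misses the threshold does not show that groups are alike. Of 928 values recomputed under the alternatives, 738 were classed as unchanged. A gene's value was so classed if it kept its direction and its side of the threshold, or moved by less than the spread. A count of members called was so classed if it stayed equal or nearly equal, which held for 61 of 104 counts. The interaction has no fit with only the groups compared, since it uses all 4. The cause of the changes below was not tested.

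Among the 7 genes not chosen by value, the number called in labelled *ERF* KD against WT (1) was 2 with DESeq2 and without the filter, 3 with the replicate block, 0 on log2(TPM + 0.1), 0 with only the groups compared, and 0 to 1 with 1 library left out. For *ERF* KD + *CIC* KO against labelled *ERF* KD (1) it was 2 with DESeq2, without the filter and with the block, 0 with length-scaled counts and on both TPM scales, and 0 to 2 with 1 library left out. The interaction (1) gave 2 with DESeq2, without the filter and with the block, 0 with length-scaled counts and on both TPM scales, and 0 to 2 with 1 library left out. In labelled *ERF* KD against labelled *CIC* KO (2 of the 10) it was 3 with the replicate block and without the filter, 1 with length-scaled counts, 0 on both TPM scales, 1 with only the groups compared, and 0 to 2 with 1 library left out. The block, which pairs libraries by letter, changed no other call of a member than those given with the results.

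Differences near 0 changed sign. *NECTIN3* in labelled *ERF* KD against WT (0.02) was -0.28 with length-scaled counts, -0.15 on log2(TPM + 1) and -0.40 on log2(TPM + 0.1), and -0.73 to 0.66 with 1 library left out. *L1CAM* in labelled *CIC* KO against WT (0.02) was -0.039 with the replicate block, -0.0097 with length-scaled counts, -0.082 on log2(TPM + 1) and -0.083 on log2(TPM + 0.1), and -0.54 to 0.42 with 1 library left out. *MCAM* in labelled *CIC* KO against WT (0.40) was -0.015 with length-scaled counts, -0.080 on log2(TPM + 1) and -0.084 on log2(TPM + 0.1). *L1CAM* in *ERF* KD + *CIC* KO against WT (0.09) was -0.069 on log2(TPM + 1) and -0.070 on log2(TPM + 0.1), and -0.44 to 0.49 with 1 library left out. With 1 library left out, *L1CAM* ranged from -0.023 to 0.86 in labelled *ERF* KD against WT, from -0.91 to 0.12 in *ERF* KD + *CIC* KO against labelled *ERF* KD, from -0.45 to 0.63 in *ERF* KD + *CIC* KO against labelled *CIC* KO, from -0.040 to 1.01 in labelled *ERF* KD against labelled *CIC* KO and from -0.92 to 0.16 in the interaction. *ALCAM* ranged from -0.16 to 0.0053 in labelled *CIC* KO against WT and from -0.15 to 0.0043 in *ERF* KD + *CIC* KO against labelled *CIC* KO, and *CNTN1* from -1.72 to 0.43 in labelled *ERF* KD against labelled *CIC* KO.

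Over all genes, the count called in labelled *ERF* KD against WT (1477) was 2577 without the filter, 2671 with the block and 620 to 1477 with 1 library left out. In labelled *CIC* KO against WT (0) it was 25 with DESeq2, 123 without the filter, 1 with the block and 0 to 1 with 1 library left out. For *ERF* KD + *CIC* KO against WT (10) it was 388, 760 and 365 in the same 3 fits, 1 on log2(TPM + 1) and 0 to 8 with 1 library left out. In *ERF* KD + *CIC* KO against labelled *ERF* KD (1709) it was 2798 without the filter, 3014 with the block, 1113 on log2(TPM + 1) and 702 to 1638 with 1 library left out. In *ERF* KD + *CIC* KO against labelled *CIC* KO (0) it was 132 with DESeq2, 424 without the filter and 49 with the block. In labelled *ERF* KD against labelled *CIC* KO (1377) it was 2364 without the filter, 2424 with the block, 829 with only the groups compared and 729 to 1206 with 1 library left out. The interaction (608) gave 1102 with DESeq2, 1643 without the filter, 1400 with the block, 314 and 312 on log2(TPM + 0.1) and log2(TPM + 1), and 272 to 554 with 1 library left out.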

Other observations

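Among the 15 genes of the contactin-L1 list, 5 were at 3 counts or fewer in all 8 libraries, with *CNTN6* at 0 throughout, and 6 were above 3 counts in all of them. In the NCAM and IgSF list this held for 7 and 13 of 24 genes, with *DSCAML1* at 0 throughout, whereas all 8 sheddase genes and 9 of 11 scaffold genes were above 3 counts in every library.

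Overlap with other genes concerned 4 further members. Exons of *TENM3* share bases with 2 antisense genes, AC098864.1 (115 bases) and AC079226.1 (118 bases), and those of *NECTIN1* share 148 bases with the antisense gene AP003393.1, none of which had a value here. Exons of *L1CAM* share 439 bases with U52112.1 on the same strand, which held at most 0.578 estimated counts, and those of *NCAM1* share 552 bases with NCAM1-AS1 on the opposite strand.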
